A study of Mus musculus with 6 samples.

Results

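The genes described here lie in the nucleus and encode subunits of respiratory complexes II to V. With them is the gene of cytochrome c, the small protein that carries electrons from complex III to complex IV. Members were taken by gene symbol, as every row of the deposited tables whose symbol names a succinate dehydrogenase subunit (Sdha to Sdhd), a Uqcr gene, Cyc1, Cycs, a Cox4 to Cox8 gene or an Atp5 gene. The pattern matched 56 rows, of which 9 carried the pseudogene mark -ps and were left out. This left 47 members of 30803 rows: 4 in complex II, 9 in complex III, cytochrome c itself, 16 in complex IV and 17 in complex V. By the RefSeq annotation of GRCm38.p6, 46 of them are protein-coding and 1, Cox6c2, is a pseudogene.

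Complex II oxidises succinate and passes its electrons to ubiquinone, complex III hands electrons from ubiquinol to cytochrome c, and complex IV gives them to oxygen. Complexes III and IV pump protons across the inner mitochondrial membrane, and complex V, the ATP synthase, lets protons flow back and makes ATP. Blood stem cells at rest are known for low use of this pathway, and their differentiating progeny for higher use.

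RNA sequencing measured the transcripts of cells labelled as hematopoietic stem cells from bone marrow of mice of genotype WT, all aged 12 months, with no treatment named. The group MHCII_lo held 3 libraries from cells with low MHCII, the antigen-presenting complex of class II, and the group MHCII_hi held 3 libraries from cells with high MHCII. The sort gates, the stem cell markers used and the number of animals are not stated by the labels. The labels do not say whether the libraries of a group are separate animals or repeats of a pool, and the spread behind each p-value, taken over these libraries alone, may be technical.

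The transcripts of the sorted protein followed the labels, with Cd74, H2-Eb1, H2-Ab1 and H2-Aa higher in MHCII_hi. Of 18 stem cell markers, 8 were under 1 FPKM (fragments mapped per kilobase of a transcript, relative to all fragments of the library) in all libraries and 10 were tested, with 4 higher and 4 lower. Kit, also carried by other progenitors, stood at 13.7 to 14.5 FPKM, while Procr, Slamf1, Mecom, Fgd5 and Hoxb5, markers of the stem cells themselves, were among those under 1 FPKM. The 28 neutrophil markers, none of them under 1 FPKM throughout, held 3.77 to 3.81% of summed FPKM in MHCII_lo and 17.4 to 17.5% in MHCII_hi, with 27 higher and 1 lower. The 14 erythroid markers held 0.184 to 0.187% and 0.109 to 0.114%, with 0 higher and 13 lower. Markers of eosinophils (6 of 7 tested lower, 1.56 to 1.57% against 0.636 to 0.641%), dendritic cells (9 of 9), monocytes and macrophages (6 of 7) and mast cells and basophils (6 of 9) were lower too, and of 4 tested B cell markers 3 were higher. In RNA from a mixed sample, fewer cells of a type and less RNA per cell cannot be told apart. FPKM is a relative unit, and the median log2 fold change of all 12049 genes tested was −0.12, which median-ratio scaling brought to −0.01. Over those genes 2451 were called higher and 4883 lower as deposited, against 3394 and 3123 after that scaling. The read depth is unknown.

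Transcripts of the respiratory subunits were lower in MHCII_hi in all 5 sets. Genes whose mean reached 1 FPKM were tested with limma on log2(FPKM + 1), and the threshold was an adjusted p under 0.05. Of the 47 members, 44 were tested, 43 were lower and 0 were higher, where 40.5% of all tested genes were lower and 20.3% higher. Cox6c2, the annotated pseudogene, was tested and not called. The tissue isoforms Cox4i2, Cox6a2 and Cox7a1 lay under the limit and were not tested. All 43 called members had MHCII_hi values wholly below the MHCII_lo values, as did 45.0% of all tested genes. Their differences were modest: over the 44 tested members the log2 fold change had a median of −0.35, or −0.23 relative to the median gene, and single members ranged from −0.66 for Atp5k to −0.15 for Atp5pb.

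The size of the difference rests partly on the scale. After median-ratio scaling the members' median was −0.22, and 37 were lower and 0 higher, where 25.9% of all tested genes were lower and 28.2% higher. With the 28 neutrophil markers taken out of each library's total, the median was −0.21 and 34 members were lower and 0 higher, where 24.6% of all tested genes were lower and 29.3% higher. Median centring left 41 lower members (30.5% of all tested genes lower, 24.9% higher), and quantile normalization 42 (33.4% lower, 23.4% higher). Among 4716 tested genes of at least 10 FPKM, the range that holds 43 of the 44 tested members, 49.4% were lower as deposited and the median was −0.13. The plot of member levels shows the groups side by side.

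**Figure D1:**
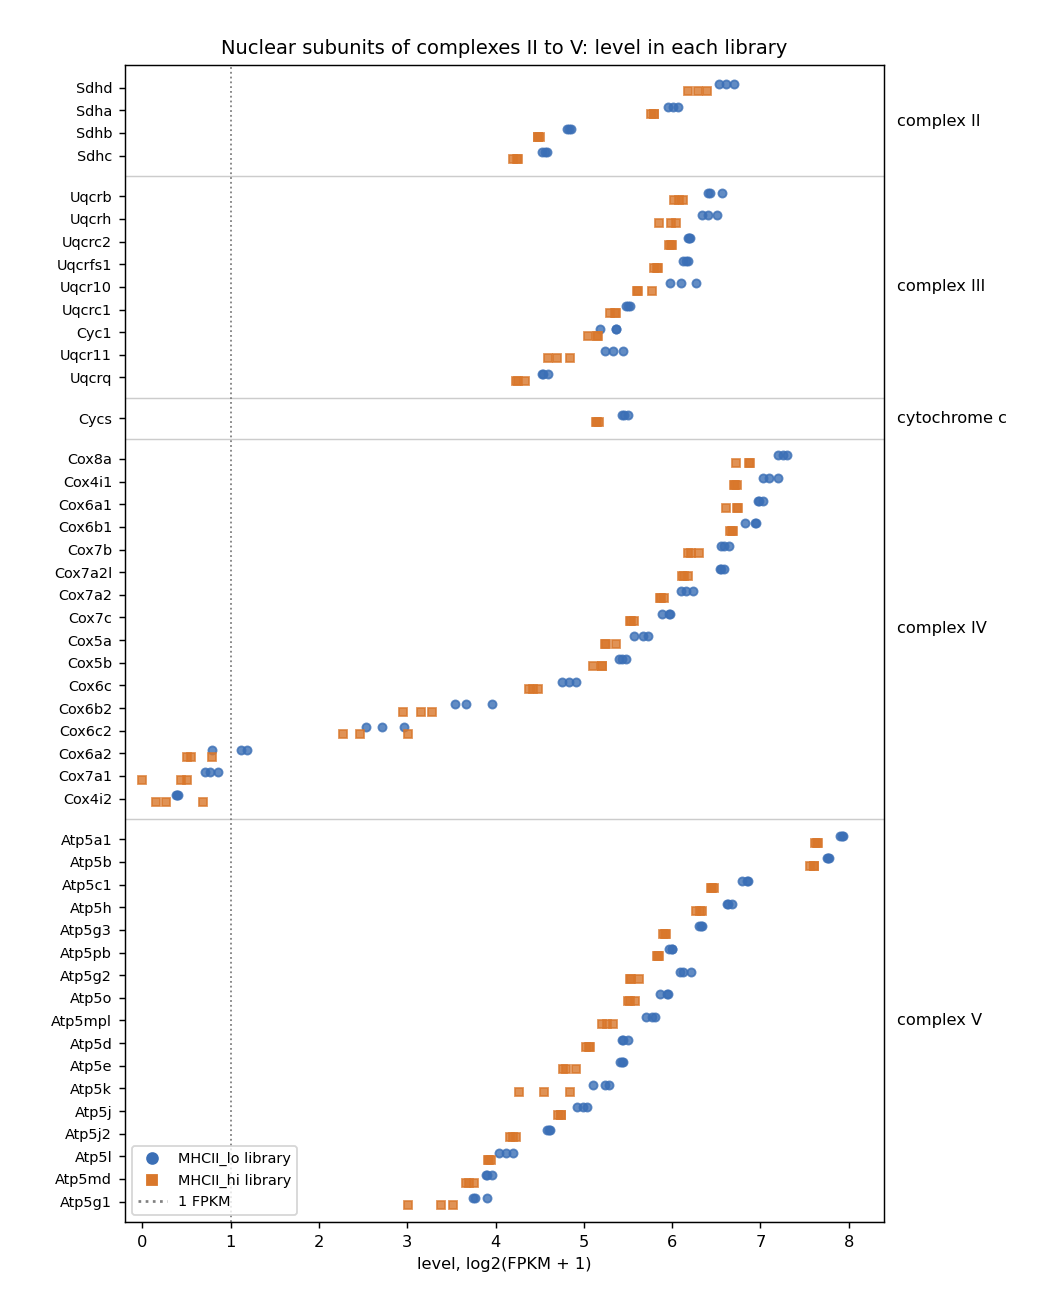
Level of each of the 47 members, as log2(FPKM + 1) on the x axis, in the 3 MHCII_lo libraries (circles) and the 3 MHCII_hi libraries (squares), by complex and from high to low; the dotted line marks 1 FPKM. In 43 of the 44 tested members, and in the untested Cox7a1, the MHCII_hi points lie wholly to the left of the MHCII_lo points; Cox6c2, Cox4i2 and Cox6a2 overlap, and Cox4i2 and Cox7a1 lie left of the dotted line.

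The promoters of these genes are known for binding sites of a few factors, NRF1 among them, and since the members moved together their start regions were read. RefSeq promoter windows of GRCm38.p6, from 250 bases before to 50 after the start, matched 35 of the 47 members by symbol, with 38 windows. Each was searched on both strands for GCGCATGCG (NRF1), CCGGAAGTG (the ETS family, to which GABPA belongs) and AAGATGGCG (YY1). The NRF1 letters overlap their own reverse complement, so a single stretch can match on both strands and was counted as 1. NRF1 letters stood in 7 of the 38 member windows (18.4%), against 3.87% of the 10550 windows of tested genes and 1.75% of all 32851 windows. They belonged to Atp5k, Atp5g2, Atp5l, Cox6a1, Cycs, Uqcrc1 and Uqcr11. The log2 fold changes of these 7 genes ran from −0.66 for Atp5k to −0.16 for Uqcrc1, nearly the whole range of the members. The ETS letters stood in 1 window, that of Uqcrh (2.63%, against 4.77% of windows of tested genes and 2.03% of all), and the YY1 letters in 2, those of Atp5j and Atp5j2 (5.26%, against 3.42% and 1.40%). A match describes the letters and is not a measured binding site. Printed here are the 100 bases that end just before the annotated start, for the member with the lowest fold change (Atp5k), the c subunit gene that fell most (Atp5g2), cytochrome c (Cycs), and the only members with ETS letters (Uqcrh) or with YY1 letters before the start (Atp5j); all 5 genes lie on the minus strand, and capitals mark the match.
Atp5k, chr5:108434400-108434499, NRF1: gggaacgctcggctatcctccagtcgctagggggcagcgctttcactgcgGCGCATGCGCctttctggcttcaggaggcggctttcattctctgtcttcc
Atp5g2, chr15:102671048-102671147, NRF1: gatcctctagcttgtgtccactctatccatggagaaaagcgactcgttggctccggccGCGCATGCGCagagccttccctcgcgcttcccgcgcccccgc
Cycs, chr6:50566570-50566669, NRF1: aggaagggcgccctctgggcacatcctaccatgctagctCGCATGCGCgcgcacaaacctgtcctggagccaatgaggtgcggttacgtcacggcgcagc
Uqcrh, chr4:116075071-116075170, ETS: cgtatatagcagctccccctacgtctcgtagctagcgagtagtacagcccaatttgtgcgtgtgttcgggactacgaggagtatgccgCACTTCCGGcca
Atp5j, chr16:84834977-84835076, YY1: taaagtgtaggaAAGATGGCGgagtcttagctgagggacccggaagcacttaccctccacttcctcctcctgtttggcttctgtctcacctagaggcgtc

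The transcripts of complex II, which also works in the citric acid cycle, fell together: all 4 were lower, with log2 fold changes of −0.34 to −0.23. Sdha, the flavoprotein that oxidises succinate, had 66.0, 61.1 and 63.3 FPKM in MHCII_lo and 54.6, 54.4 and 53.1 FPKM in MHCII_hi. Sdhb, the iron-sulfur subunit that takes its electrons, had 27.1, 27.9 and 27.4 FPKM against 21.3, 21.3 and 21.7 FPKM. Neither gene's groups overlapped, and Sdha was lower by 14.8% and Sdhb by 22.0% of the MHCII_lo mean. The membrane anchors Sdhc and Sdhd, which hold the ubiquinone site, moved by like amounts. Sdhc had 23.0, 22.5 and 22.1 FPKM in MHCII_lo and 17.9, 18.1 and 17.3 FPKM in MHCII_hi, and Sdhd had 91.4, 96.3 and 103 FPKM against 71.3, 82.9 and 77.3 FPKM. Sdhd was the most abundant transcript of the complex in every library, and its libraries of a group were also the most spread. The log2 fold changes were −0.34 ± 0.027 (SE) for Sdhb, −0.33 ± 0.063 for Sdhd, −0.32 ± 0.032 for Sdhc and −0.23 ± 0.033 for Sdha, with limma adjusted p of 5.06e-05, 0.00388, 0.000161 and 0.000977. With the neutrophil markers out of the total, Sdha was no longer called (adjusted p = 0.0665).

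In complex III all 9 transcripts were lower, and the small accessory subunits had a lower median than the catalytic and core subunits, though single members of the sets overlapped. The median log2 fold change was −0.45 over the 5 small subunits Uqcrb, Uqcrh, Uqcrq, Uqcr10 and Uqcr11, and −0.19 over Cyc1, Uqcrfs1, Uqcrc1 and Uqcrc2. Uqcrb, a small matrix-side subunit, was the most abundant, with 85.1, 93.5 and 84.1 FPKM in MHCII_lo and 66.7, 68.7 and 64.0 FPKM in MHCII_hi. Uqcr11 (chr10:80402997-80406821), which has the shortest coding sequence of the complex (168 bases), had the lowest fold change of the complex, with 36.9, 39.4 and 42.6 FPKM against 27.7, 24.9 and 23.2 FPKM. The MHCII_hi libraries lay wholly below in both, and the log2 fold changes were −0.39 ± 0.047 (SE) for Uqcrb and −0.63 ± 0.074 for Uqcr11, with limma adjusted p of 0.000387 and 0.000365. Uqcrh, the acidic hinge protein that helps dock cytochrome c on its partner, had 80.1, 83.5 and 90.2 FPKM against 62.6, 56.7 and 64.9 FPKM. Its log2 fold change was −0.46 ± 0.061, close to that of Uqcr10 (−0.45 ± 0.080), while Uqcrq, at −0.28 ± 0.040, was nearer to the core subunits.

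The catalytic side of complex III had smaller differences. Cyc1, the cytochrome that hands electrons to cytochrome c, had 35.2, 40.3 and 40.2 FPKM in MHCII_lo and 34.6, 34.8 and 32.0 FPKM in MHCII_hi. The lowest MHCII_lo library was barely above the highest of MHCII_hi, and the log2 fold change of −0.18 ± 0.060 (SE) had a limma adjusted p of 0.0344. Of all members its call was the least secure: it was lost under each of the 4 other scalings, without a filter, without an intensity trend, with a replicate block and without any 1 library except the first of MHCII_lo, with adjusted p of 0.0507 to 0.600. Uqcrc1, a core protein on the matrix side, had the highest fold change of the complex, with 44.2, 43.6 and 45.0 FPKM against 40.1, 40.0 and 38.3 FPKM. Its log2 fold change was −0.16 ± 0.029 (adjusted p = 0.00257), and it was −0.03 (adjusted p = 0.372) after median-ratio scaling. The Rieske iron-sulfur protein Uqcrfs1, in contrast, was lower at −0.33 ± 0.026 and kept its call under every scaling run.

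Cytochrome c (Cycs, chr6:50562563-50566569), whose promoter is printed above, also serves as a trigger of caspases once released from mitochondria. Its transcript had 44.3, 42.0 and 42.8 FPKM in MHCII_lo and 34.2, 34.4 and 35.0 FPKM in MHCII_hi. The groups were far apart relative to their spread, and the log2 fold change was −0.31 ± 0.029 (SE, limma adjusted p = 0.000112), or −0.18 after median-ratio scaling (adjusted p = 0.00170). Of 11 genes of the cytochrome c route to cell death and its brakes, all tested, 2 were higher and 3 lower with a median of −0.04, where 20.3% of all tested genes were higher and 40.5% lower. After median-ratio scaling 3 were higher and 3 lower, with a median of 0.09. Bax, which opens the outer membrane, was lower at −0.59 (22.8 ± 1.64 to 14.8 ± 0.583 FPKM, SD, n = 3 libraries each).

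Complex IV, cytochrome c oxidase, has 16 members here, since many of its nuclear subunits exist as a widely expressed form and a form of particular tissues. Of the 13 tested, 12 were lower and 0 higher. The 5 subunits classed as having a single isoform, Cox5a, Cox5b, Cox6c, Cox7b and Cox7c, had a median log2 fold change of −0.37 (−0.41 to −0.27). The 5 classed as widely expressed isoforms, Cox4i1, Cox6a1, Cox6b1, Cox7a2 and Cox8a, had one of −0.30 (−0.43 to −0.23). Cox8a was put in the latter set although no tissue form of it is among the members. Cox7b was put in the former set although it has a relative, Cox7b2, which is not among the members. Cox8a, a small subunit of the membrane part, was the most abundant, with 152, 146 and 157 FPKM in MHCII_lo and 116, 117 and 105 FPKM in MHCII_hi. Cox4i1, the isoform of the regulatory subunit IV found in most tissues, had 136, 130 and 146 FPKM against 105, 104 and 103 FPKM. Cox8a was lower by 25.7% and Cox4i1 by 24.2% of the MHCII_lo mean, with log2 fold changes of −0.43 ± 0.047 (SE) and −0.39 ± 0.041 and limma adjusted p of 0.000269 and 0.000208.

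The other widely expressed isoforms moved less. Cox6a1 had 125, 124 and 129 FPKM in MHCII_lo and 106, 96.8 and 105 FPKM in MHCII_hi, Cox6b1 had 122, 123 and 113 FPKM against 102, 101 and 99.6 FPKM, and Cox7a2 had 67.6, 70.6 and 74.5 FPKM against 58.9, 57.0 and 57.5 FPKM. None of these groups overlapped, and the log2 fold changes were −0.30 ± 0.039 (SE) for Cox6a1, −0.29 ± 0.038 for Cox7a2 and −0.23 ± 0.035 for Cox6b1. Cox6b1, on the side that faces cytochrome c, was not called once the neutrophil markers were out of the total (adjusted p = 0.0679). Cox7a2l, a relative of Cox7a2 known as a factor that joins complexes III and IV into supercomplexes, had 92.1, 93.1 and 95.2 FPKM against 71.7, 68.3 and 69.3 FPKM. Its log2 fold change of −0.42 ± 0.026 (adjusted p = 1.73e-05) was lower than that of Cox7a2, so Cox7a2 made up more of the Cox7a family in MHCII_hi.

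Tissue isoforms of complex IV were scarce. Cox6b2 (chr7:4751792-4753094), the testis form of subunit VIb, was the only 1 of the 4 that reached the limit for testing, with 14.6, 10.7 and 11.7 FPKM in MHCII_lo and 8.75, 7.89 and 6.74 FPKM in MHCII_hi. It had the lowest fold change of the complex, −0.60 ± 0.13 (SE, limma adjusted p = 0.00549), and its lowest MHCII_lo library lay above its highest MHCII_hi library. The heart and muscle form Cox6a2 had 1.16, 0.72 and 1.27 FPKM against 0.42, 0.46 and 0.73 FPKM, with overlapping groups. The other heart and muscle form, Cox7a1, had 0.70, 0.81 and 0.64 FPKM against 0.42 and 0.35 FPKM, and was listed at 0 in the remaining MHCII_hi library. The lung form Cox4i2 had 0.30, 0.31 and 0.32 FPKM against 0.20, 0.61 and 0.11 FPKM, so its groups overlapped. Cox6c2, the pseudogene, had the highest fold change of the tested complex IV members but overlapping groups (4.78, 6.79 and 5.56 FPKM against 7.06, 4.54 and 3.82 FPKM), with a log2 fold change of −0.15 ± 0.20 (adjusted p = 0.533).

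ATP synthase held the most abundant transcripts of all members and also the member with the lowest fold change, and all 17 of its members were lower. Its catalytic head is built from alpha subunits (Atp5a1) and beta subunits (Atp5b), which ranked 1 and 2 among the members by level in FPKM. Atp5a1 had 237, 242 and 244 FPKM in MHCII_lo and 195, 199.96 and 198 FPKM in MHCII_hi, and Atp5b had 215, 218 and 217 FPKM against 194, 193 and 188 FPKM. The groups lay far apart relative to their spread, but the differences were small, −0.28 ± 0.019 (SE) for Atp5a1 and −0.18 ± 0.019 for Atp5b (limma adjusted p = 2.23e-05 and 0.000247). After median-ratio scaling Atp5a1 kept its call at −0.15, and Atp5b did not (−0.05, adjusted p = 0.0847).

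The rotating parts of the enzyme had lower fold changes than its head, as a description that was not tested. The central stalk, made of gamma (Atp5c1), delta (Atp5d) and epsilon (Atp5e) subunits, had a median log2 fold change of −0.41, and the genes of the c ring, which turns as protons pass, one of −0.50, beside −0.23 for the head. Atp5e (chr2:174461075-174464101) had 42.6, 41.5 and 42.3 FPKM in MHCII_lo and 29.1, 26.9 and 26.1 FPKM in MHCII_hi. This was a decrease of 35.1%, with a log2 fold change of −0.61 ± 0.042 (SE, limma adjusted p = 2.63e-05).

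The 3 genes Atp5g1, Atp5g2 and Atp5g3 encode the c subunit, and differ in the import signal but give the same mature protein. Atp5g3 was the most abundant, with 80.0, 78.3 and 79.4 FPKM in MHCII_lo and 59.7, 60.0 and 58.8 FPKM in MHCII_hi. Atp5g2 had 66.8, 68.5 and 73.3 FPKM against 45.5, 44.9 and 48.3 FPKM, and Atp5g1 had 13.9, 12.6 and 12.4 FPKM against 7.02, 9.43 and 10.5 FPKM. All 3 were lower, without overlap, at −0.58 ± 0.043 (SE) for Atp5g2, −0.50 ± 0.13 for Atp5g1 and −0.41 ± 0.022 for Atp5g3 (limma adjusted p = 3.92e-05, 0.0130 and 6.99e-06).

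The parts that hold the enzyme still or pair it into dimers varied most among themselves. In the peripheral stalk, the fold changes ran from −0.39 for Atp5o, which grips the head, to −0.15 for Atp5pb, the b subunit. Atp5pb had the highest fold change of complex V, with 63.2, 62.7 and 61.6 FPKM in MHCII_lo and 56.8, 56.2 and 55.7 FPKM in MHCII_hi, a log2 fold change of −0.15 ± 0.022 (SE, limma adjusted p = 0.00113) that was −0.02 (adjusted p = 0.470) after median-ratio scaling. Among the small membrane subunits the range was wider. Atp5k (chr5:108433246-108434399), subunit e of the dimer interface, had 33.5, 38.0 and 36.9 FPKM against 27.7, 18.2 and 22.5 FPKM. It was the lowest of all members at −0.66 ± 0.14 (adjusted p = 0.00521), with the largest SD between MHCII_hi libraries in complex V (4.74 FPKM). Subunit g, Atp5l, had 16.4, 17.4 and 15.4 FPKM against 14.4, 14.0 and 14.2 FPKM, and Atp5md had 14.5, 13.9 and 13.8 FPKM against 12.0, 11.7 and 12.5 FPKM. Both were lower as deposited, at −0.19 ± 0.046 and −0.20 ± 0.038, and neither was called after median-ratio scaling (adjusted p = 0.248 and 0.115). Atp5l also lost its call under median centring (adjusted p = 0.0696). The small proteolipid Atp5mpl, in contrast, was lower at −0.49 ± 0.042 and kept its call.

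**Figure D2:**
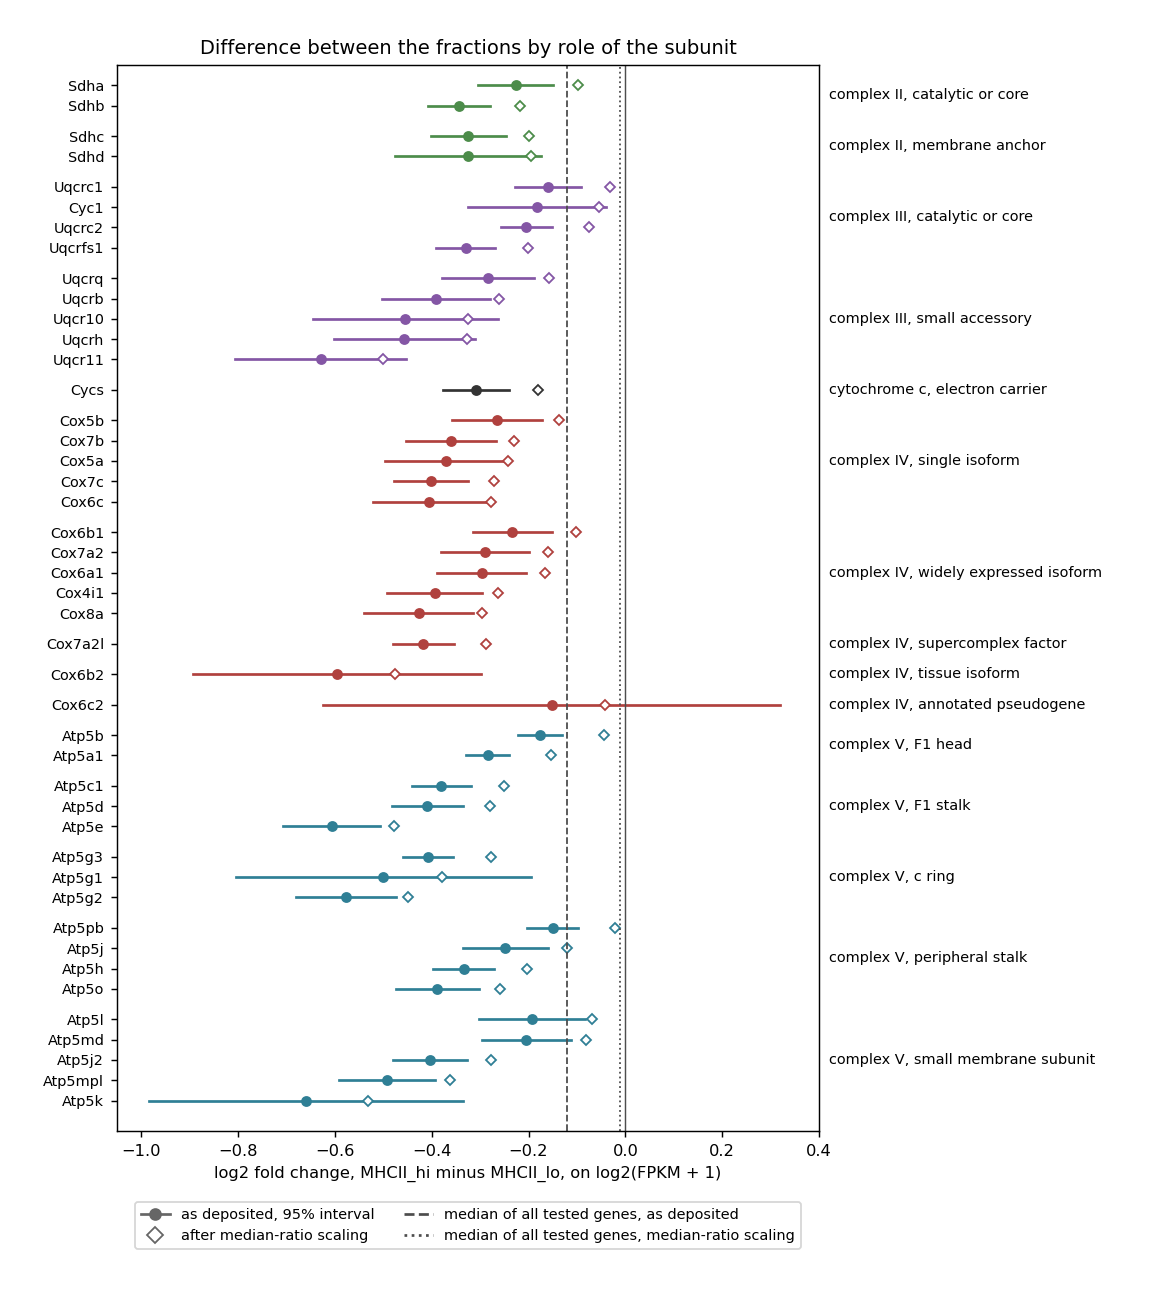
Log2 fold change, MHCII_hi minus MHCII_lo on log2(FPKM + 1), of the 44 tested members by complex and role, as deposited (filled points with 95% intervals) and after median-ratio scaling (open diamonds); the dashed and dotted lines mark the median of all tested genes on each scale, −0.12 and −0.01. The central stalk (F1 stalk) and c ring points of complex V lie left of both head points, while Atp5pb of the peripheral stalk lies right of them. Uqcr11 is the leftmost point of complex III and Uqcrc1 the rightmost. The 6 diamonds of Cyc1, Uqcrc1, Atp5md, Atp5l, Atp5b and Atp5pb belong to called members that lost their call.

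Ratios between subunits of 1 enzyme within a library do not move with the scaling of that library. The pairs given here were chosen after their values were seen and are a description. Transcripts of Atp5e relative to Atp5b, in FPKM per FPKM, stood at 0.195 ± 0.0039 in MHCII_lo and 0.143 ± 0.0064 in MHCII_hi (SD, n = 3). The ratio of Atp5a1 to Atp5b, the head's own subunits, went from 1.11 ± 0.0082 to 1.03 ± 0.024. In complex III the ratio of Uqcr11 to Uqcrc1 went from 0.895 ± 0.056 to 0.640 ± 0.046, and in complex II that of Sdhb to Sdha from 0.434 ± 0.023 to 0.397 ± 0.010. In these 4 pairs the MHCII_hi libraries lay wholly below, which the choice of pairs fixed in part.

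Summed over its members, every complex took a smaller part of the library in MHCII_hi, by like factors. All 47 members held 0.904, 0.908 and 0.924% of summed FPKM in MHCII_lo and 0.682, 0.683 and 0.679% in MHCII_hi, a ratio of 0.747. Complex II held 0.0642 ± 0.0014% and 0.0494 ± 0.0019%, complex III 0.161 ± 0.0050% and 0.119 ± 0.00077%, cytochrome c 0.0131 ± 0.00035% and 0.0100 ± 0.00014% (SD, n = 3). Complex IV held 0.304 ± 0.0048% and 0.225 ± 0.0028%, and complex V, the largest part, 0.370 ± 0.0013% and 0.278 ± 0.0011%. The ratios of MHCII_hi to MHCII_lo were 0.769, 0.742, 0.762, 0.740 and 0.751 in that order, with no overlap of groups. Each exact two-sided permutation test of 3 libraries against 3 gave p = 0.1, the smallest it allows, and 0.1 after adjustment over the 6 sums. With the 28 neutrophil markers out of the total, all members held 0.948 ± 0.011% and 0.826 ± 0.0025%, a ratio of 0.871, again without overlap. Most tested markers of red cells, eosinophils, dendritic cells, monocytes and mast cells fell beside the members, and the part of these cell types in the result was not tested.

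**Figure D3:**
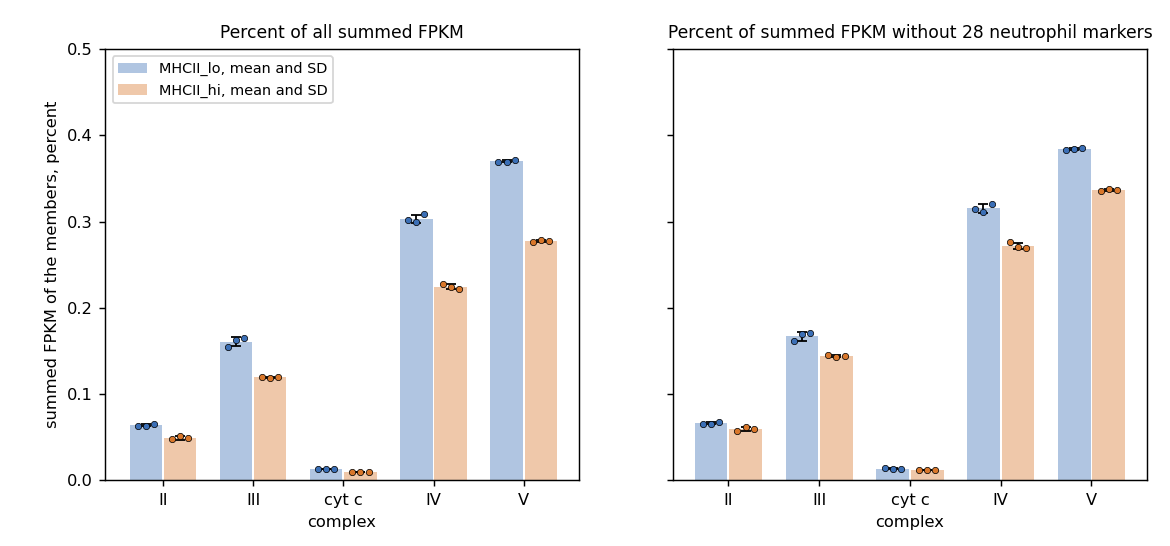
Summed FPKM of the members of each complex as a percent of the library's summed FPKM (left) and of that sum without 28 neutrophil markers (right), as bars for the mean of 3 libraries with SD and points for single libraries. All MHCII_hi points lie below the MHCII_lo points in both panels, with a smaller gap on the right.

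Within families of related genes the mix shifted by at most 2.89 percentage points between the fractions. Of the summed FPKM of the c subunit genes, Atp5g3 made up 49.8, 49.1 and 48.1% in MHCII_lo and 53.2, 52.5 and 50.01% in MHCII_hi, while Atp5g2 made up 41.6, 43.0 and 44.4% against 40.6, 39.3 and 41.1%. Atp5g1 gave 8.02 ± 0.60% and 7.80 ± 1.4% (SD, n = 3), with overlapping groups. In the Cox7a family, Cox7a2 went from 42.9 ± 0.79% to 45.2 ± 0.10%, Cox7a2l from 56.6 ± 0.76% to 54.6 ± 0.28% and Cox7a1 from 0.435 ± 0.058% to 0.203 ± 0.18%. Cox6b2 gave 9.38 ± 1.4% and 7.16 ± 0.78% of its pair with Cox6b1. The 6 shares of Atp5g2, Atp5g3, Cox7a1, Cox7a2, Cox7a2l and Cox6b2 did not overlap between groups, and each had p = 0.1 by an exact two-sided permutation test, the smallest possible, and 0.15 after adjustment over 9 shares. Cox6a2 (0.822 ± 0.21% against 0.519 ± 0.15% of its pair) and Cox4i2 (0.226 ± 0.011% against 0.293 ± 0.26%) overlapped, with exact p of 0.2 and 1, and Atp5g1 had an exact p of 0.9.

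**Figure D4:**
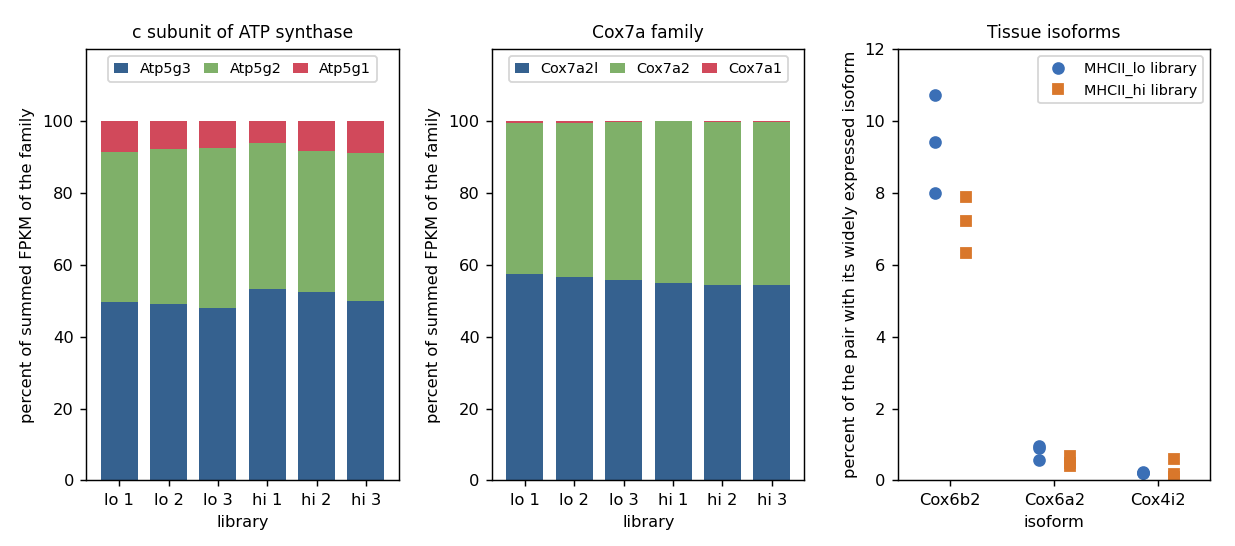
Percent of a family's summed FPKM held by each gene, by library, for the c subunit genes and the Cox7a family (stacked bars, from 0 to 100%). Points by library give the percent of the pair with its widely expressed isoform for Cox6b2, Cox6a2 and Cox4i2. Atp5g3 and Atp5g2 hold most of the c subunit transcripts in every library, and Cox6b2 lies between 8.01 and 10.7% in MHCII_lo and between 6.34 and 7.90% in MHCII_hi.

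By class median, the members with shorter coding sequences had lower fold changes. Single members departed from this order, such as Atp5md (174 bases, −0.20) and Cox6b2 (312 bases, −0.60). Of the tested members, 43 of 44 have an annotated coding sequence. The median log2 fold change was −0.41 over 15 members of less than 300 coding bases, −0.37 over 17 of 300 to 600, −0.34 over 6 of 600 to 1200 and −0.20 over 5 of 1200 or more. The last 5 are Sdha, Uqcrc1, Uqcrc2, Atp5a1 and Atp5b, all catalytic, core or head subunits, so length and role cannot be told apart among them. The small subunits of complex III (168 to 333 coding bases) are likewise all shorter than its core subunits (822 to 1440). The central stalk and c ring genes of ATP synthase (156 to 894) are shorter than those of the head (1587 and 1659). Length and role cannot be told apart in these contrasts either. All tested genes followed the same order of classes at less depth, with medians of −0.27, −0.22, −0.14 and −0.08. Tested genes of at least 10 FPKM, the range of nearly all members, had −0.31, −0.24, −0.14 and −0.06. In those classes 65, 60, 51 and 43% of them were called lower. Across the 43 members, which share all 6 libraries and are not independent replicates, Pearson's r between the log2 fold change and log2 coding length was 0.533 and the Spearman correlation 0.488. The Spearman correlation was 0.177 across the 10038 tested genes with a coding length, and 0.050 between the members' fold changes and their mean FPKM. How transcript length entered the deposited values was not tested.

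**Figure D5:**
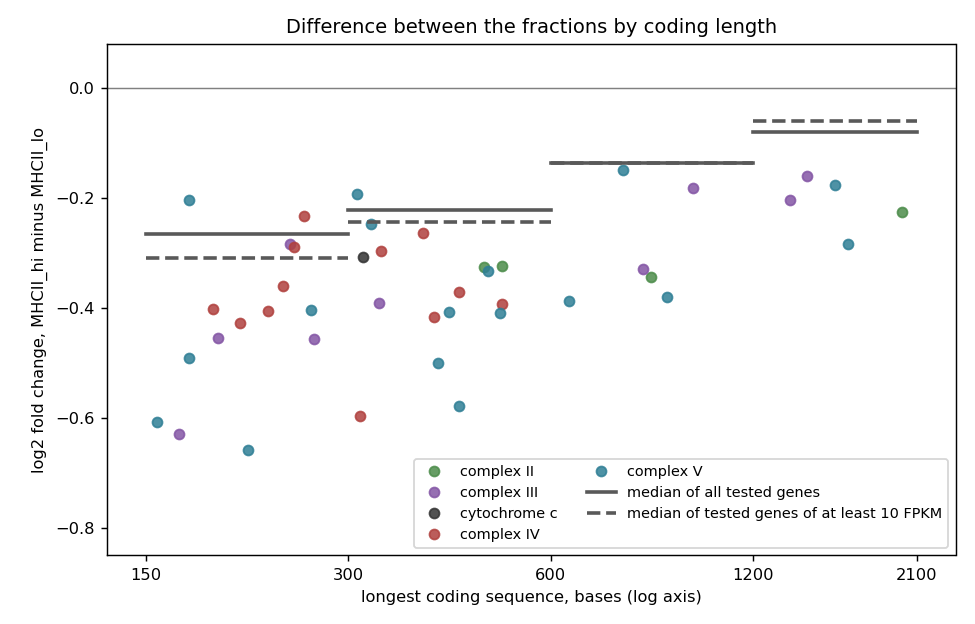
Log2 fold change of the 43 tested members with a coding sequence, MHCII_hi minus MHCII_lo on log2(FPKM + 1), against the length of the longest coding sequence in bases (log axis), coloured by complex; lines give the median of all tested genes, and of those of at least 10 FPKM, in each of 4 length classes. Every point lies below 0, the shortest members reach −0.66, and the longest lie between −0.28 and −0.16.

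The rows left out for their -ps mark, and genes that overlap members, touch a few values. Cox5b-ps stood at 26.8 ± 3.6 FPKM in MHCII_lo and 22.7 ± 2.6 in MHCII_hi (SD, n = 3), beside 42.3 ± 1.3 and 35.0 ± 1.4 FPKM for Cox5b itself, so reads of the parent and the copy may be split between them. With the copy rows added to their parents, an alternative chosen after seeing the data, the log2 fold changes of Cox5b, Atp5pb and Cox7c were −0.25, −0.16 and −0.41, and all 3 stayed called. In the annotation 14 members share exon bases with another gene, mostly on the opposite strand, such as Atp5j with Gabpa. Whether the quantification used strand is not given in the sources used here, so these values may hold reads of the neighbour.

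The subunits that mitochondria encode for the same complexes moved with the nuclear ones. All 6 of them in complexes III to V were lower, with a median log2 fold change of −0.41, and their part of summed FPKM was 6.57 to 6.75% in MHCII_lo and 4.85 to 4.95% in MHCII_hi. The cytochrome b gene of complex III, mt-Cytb, went from 1980 ± 42 to 1302 ± 19 FPKM (SD, n = 3; log2 fold change −0.60), and mt-Co3 of complex IV from 2801 ± 23 to 2104 ± 17 FPKM (−0.41). All 6 kept their call under the other scalings run except quantile normalization, under which mt-Atp8 lost it (adjusted p = 0.0562).

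Genes listed as building or serving the complexes were counted, to be read against the 40.5% lower and 20.3% higher of all tested genes. The role of each gene in its list was not checked, that of Cyb5r1 (complex III) and Tmem186 (ATP synthase) included. Of 26 tested genes listed under complex IV assembly, 13 were lower and 0 higher (median −0.26). Among the lower were Cmc1, a copper-related factor, at −0.52 and Ndufa4 at −0.31. Ndufa4 sits on complex IV itself, but its symbol lies outside the pattern that took the members. The complex III list had 3 of 7 lower (median −0.15), with Uqcc1 at −0.27 and Uqcc2 at −0.53, both needed to make cytochrome b. Its 1 higher gene was Cyb5r1, at 0.10. In the complex II list 1 of 3 was lower, Sdhaf1 at −0.50, which loads iron-sulfur clusters into Sdhb; its call was lost without the third MHCII_lo library (adjusted p = 0.0519). Of 7 genes listed under assembly or inhibition of ATP synthase, 5 were lower and 0 higher (median −0.36), including the inhibitor Atpif1 at −0.41 and the assembly factor Tmem70 at −0.36.

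Of 10 tested carriers and channels for ATP and phosphate, 7 were lower and 1 higher (median −0.29). The ATP/ADP exchanger Slc25a5 went from 347 ± 6.0 to 295 ± 1.2 FPKM (SD, n = 3), a log2 fold change of −0.23, and the outer membrane channel Vdac1 from 76.0 ± 0.26 to 59.2 ± 1.1 FPKM (−0.35). The gene that was higher was Slc25a24, a calcium-sensing carrier of ATP-Mg and phosphate, at 0.76 (18.9 ± 1.5 to 32.7 ± 1.1 FPKM), named here after its values were seen. Among 16 tested factors of mitochondrial biogenesis 9 were lower and 1 higher (median −0.21). Tfam, which packs and transcribes mitochondrial DNA, was lower at −0.41 (9.56 ± 0.26 to 6.94 ± 0.32 FPKM), and Yy1, whose letters were searched in the promoters, at −0.34 (26.4 ± 0.64 to 20.7 ± 0.22 FPKM). Nrf1 and Gabpa are named here because their letters were searched too. Nrf1 was lower at −0.15, but it was not called after median-ratio scaling (−0.05, limma adjusted p = 0.398). Gabpa was not called as deposited (−0.04, limma adjusted p = 0.489). After median-ratio scaling the counts of lower and higher genes were 12 and 1 for complex IV assembly, 6 and 3 for the carriers and 6 and 3 for biogenesis, where 25.9% of all tested genes were lower and 28.2% higher. As deposited, the shares of lower genes in the assembly lists of complexes II and III are not far from the 40.5% of all tested genes. Those of complex IV assembly (13 of 26) and biogenesis (9 of 16) are somewhat above it, in short lists.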

How the data were processed

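For each library the authors deposited a table of 30803 rows, with a symbol and a value in each. The unit was taken to be FPKM, since StringTie stands in the submitters' processing notes, beside fastp, HISAT2 and the build GRCm38 (mm10), without versions, and summed values differ between libraries (327364 to 346651); no header names it. Per the labels' protocols, libraries were made with a stranded kit for mRNA. Depth is unknown, so no counting intervals are given, and no column belonged to another study's sample.

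Rows with a mean of at least 1 FPKM (12049) were compared as log2(FPKM + 1) in limma 3.58.1 (R 4.3.3), using an intensity trend and only the group as a term, two-sided, and Benjamini-Hochberg adjustment over all of them at 0.05. Fold changes on this scale understate those of low genes. Shares of summed FPKM were compared by exact permutation. The fit was tested on simulated data. Python 3.11.15 with pandas 2.3.3 and scipy 1.17.1 served for the rest.

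Values in every library were printed for complex II, cytochrome c, the most abundant and the extreme members of the other complexes, isoform families and members that lost their call under median-ratio scaling; of each pathway list, the 2 called genes with the smallest p were named, except 1 gene that is not reported here. Further members were added for their roles after their values were seen. Members and lists were chosen with earlier results of these data known. Alternatives were other pseudocounts, filters and scalings, no trend, a replicate block and leaving out each library.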

Additional observations from a re-analysis of the deposited data

How the results depend on the processing

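No called member changed direction under any alternative run, and none became higher. Under median-ratio scaling 3123 genes were lower and the members' median log2 fold change was −0.22; with neutrophil markers out of the total these were 2964 and −0.21, and with median centring the median was −0.28. Calls lost in both of the former were those of Cyc1, Uqcrc1, Atp5md, Atp5l, Atp5b and Atp5pb, and with the markers out also those of Sdha, Uqcrc2 and Cox6b1. In that setting the differences in shares of summed FPKM were −0.00689 points for complex II, −0.0227 for complex III, −0.00152 for cytochrome c, −0.0432 for complex IV, −0.0478 for complex V and −0.122 for all members. Same-numbered libraries did not deviate together (correlations −0.0418, −0.0401 and −0.0422), and a block for the replicate number left 42 members were lower, Cyc1 losing its call (adjusted p = 0.0547). Leaving out 1 library gave 42 or 43 lower members, and the log2 fold change of Cox6c2, not called, ranged from −0.37 to 0.0049, the latter without the third MHCII_hi library. The difference in the Atp5g1 share, −0.22 points, ranged from −0.771 to 0.554 when 1 library was left out, and that of Cox4i2, 0.068 points, from −0.0777 to 0.161. Unknown depth leaves the error of the low isoforms Cox4i2, Cox6a2 and Cox7a1 undetermined.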
